A study of Mus musculus with 2 samples.

Results

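The thin filament of striated muscle is a string of actin with tropomyosin and troponin, and 10 genes whose products set its length or take part in its assembly were followed here: Neb, Nrap, Lmod2, Lmod3, Tmod1, Tmod4, Xirp1, Xirp2, Cap2 and Smpx. They were chosen by name, through the gene symbols that the platform annotation gives to the probe sets of the array. Earlier results of these data were known when they were chosen. All 10 had a probe set of their own, among 19938 genes that had one, and together they had 11. Signals were read from total RNA of mouse mandible, the lower jaw, at E18.5 (embryonic day). The wild-type group is 1 array of a BALB/c mandible sample with no agent named in the labels. The double-knockout group is 1 array of a mandible sample labelled Myf5-/-:MyoD-/- on BALB/c. That is, the sample is null for Myf5 and MyoD, transcription factors that commit precursor cells to skeletal muscle. The series title asks what skeletal muscle contributes to mandible development. The sources used here do not give the number of embryos behind each array. With 1 array per genotype there is no replicate error and no test, so every difference compares these 2 arrays only.

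In skeletal muscle the barbed ends of actin filaments sit in the Z-disc and the pointed ends reach toward the middle of the sarcomere. Nebulin runs along the filament from the Z-disc, tropomodulins cap the pointed end, and leiomodins, which are related to tropomodulins, nucleate actin and promote growth at that end. Scaffold proteins such as Nrap and the Xin proteins hold actin bundles at assembling myofibrils and at the ends of the muscle fibre, and loss of nebulin or leiomodin 3 in humans causes nemaline myopathy, a weakness of the skeletal muscles.

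In the double-knockout mandible all 10 genes had less than 50% of their wild-type signal, that is, a difference of at least 2-fold, beside 2.73% of all measured genes (284 of 10393). None of the 10 was 2-fold higher, beside 0.51% of all measured genes. On the wild-type array their deposited log2 signals ran from 7.33 to 11.07. On the double-knockout array they ran from 3.26 to 6.52, and each gene was lower there than on the wild-type array. A floor was set on each array at the median of the annotated probe sets (6.18 for wild type, 6.19 for double knockout), since the file marks no detection calls; a gene above it on at least 1 array counts as measured. In the wild type all 10 genes exceeded the floor, and 1 of them, Cap2, also exceeded it in the double knockout. For the other 9, the difference is therefore a lower bound, written "at least", whose size is fixed by how far the wild-type value stood above the floor. The median of the 10 differences, with those 9 at their bounds, was -2.91 on the log2 scale (double knockout minus wild type), beside a median of 0.098 over all measured genes.

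**Figure D1:**
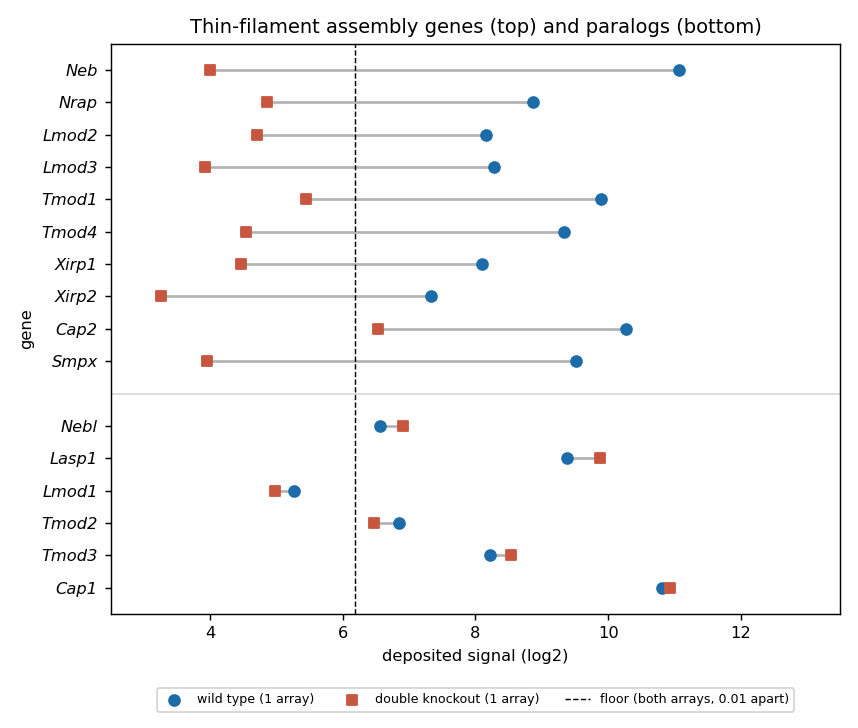
Deposited log2 signal (x axis) of each gene (y axis) on the wild-type array (circles) and the double-knockout array (squares), for the 10 thin-filament assembly genes above the grey line and 6 paralogs below it; the dashed line is the floor. All 10 upper genes lie right of the floor in the wild type and 9 of them left of it in the double knockout, while the pairs of points of the paralogs lie at most 0.50 log2 units apart.

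The double knockout lacks proteins that bind the short DNA motif CANNTG, the E-box, so the sequence upstream of the member genes is shown for 4 of them. Windows of 250 bases before the annotated transcript start were taken from RefSeq on build GRCm38.p6. Of the 10 genes, 7 were matched, and Neb, Lmod3 and Xirp1 were not. The 4 windows shown all hold CANNTG. Of the windows not shown, that of Tmod4 holds it and those of Tmod1 and Smpx do not. In the following sequences, written 5′ to 3′ on the gene's own strand, capitals mark each CANNTG and, in Xirp2, also a match to the MEF2 site, the A/T-rich element of another family of muscle transcription factors. Nrap lies at chr19:56390039-56390288 on the minus strand, and Lmod2 at chr6:24597521-24597770, Xirp2 at chr2:67445752-67446001 and Cap2 at chr13:46501653-46501902 lie on the plus strand.
Nrap: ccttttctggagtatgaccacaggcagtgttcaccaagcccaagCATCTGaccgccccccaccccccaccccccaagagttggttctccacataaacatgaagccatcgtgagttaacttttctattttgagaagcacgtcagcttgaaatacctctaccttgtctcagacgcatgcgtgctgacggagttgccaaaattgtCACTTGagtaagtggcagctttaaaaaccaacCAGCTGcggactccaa
Lmod2: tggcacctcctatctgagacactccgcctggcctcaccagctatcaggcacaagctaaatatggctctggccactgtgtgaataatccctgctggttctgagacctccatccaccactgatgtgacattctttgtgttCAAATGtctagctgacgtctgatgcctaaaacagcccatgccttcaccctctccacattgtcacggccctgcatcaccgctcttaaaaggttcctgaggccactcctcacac
Xirp2: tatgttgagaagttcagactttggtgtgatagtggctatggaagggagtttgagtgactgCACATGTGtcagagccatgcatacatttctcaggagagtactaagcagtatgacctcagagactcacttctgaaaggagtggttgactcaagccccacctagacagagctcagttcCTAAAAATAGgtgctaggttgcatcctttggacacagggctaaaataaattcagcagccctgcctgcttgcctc
Cap2: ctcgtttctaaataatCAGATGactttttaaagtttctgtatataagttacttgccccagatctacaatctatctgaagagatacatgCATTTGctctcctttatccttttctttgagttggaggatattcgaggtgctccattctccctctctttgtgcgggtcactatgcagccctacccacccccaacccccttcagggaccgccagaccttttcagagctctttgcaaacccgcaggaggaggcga

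Both strands were searched. CANNTG was present in 5 of the 7 windows, beside 66.2% of 32851 RefSeq windows of the same length, so the share of members with a match is near that of windows at large. The Nrap window held 3, the nearest starting 16 bases before the start; this one is the CAGCTG form, which was present in 1 of the 7 windows and in 13.0% of all. The Xirp2 window held 2 that overlap each other, starting 190 and 188 bases before the start, and the only MEF2 site of the 7 windows, 74 bases before the start, beside 2.92% of all windows. Lmod2 had 1 CANNTG, Cap2 and Tmod4 had 2 each, and Tmod1 and Smpx had 0. The CArG box, the site of serum response factor, was in 0 of the 7 windows and in 1.47% of all. A match describes these letters and does not show binding.

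Of the nebulin group, Neb had the larger bound. Neb, the giant protein that spans most of the thin filament, had a deposited signal of 11.07 in the wild type against 4.001 in the double knockout. That is at least 29.4-fold lower, the largest bound of the 10 genes. Nrap, the nebulin-related anchoring protein that takes part in early myofibril assembly and sits at myotendinous junctions, had 8.86 and 4.85 and was at least 6.38-fold lower. Neb lay 2.19 log2 units under the floor in the double knockout and Nrap 1.33 under it, a region of the scale where values have no order here.

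Their relatives Nebl and Lasp1 were less than 2-fold apart between the arrays, and slightly higher in the double knockout. Nebl, which encodes nebulette and a shorter LIM-containing form, had 6.56 in the wild type against 6.91 in the double knockout on its brighter probe set, 1.27-fold higher. Its other probe set was below the floor on both arrays (4.85 and 4.67). Lasp1, a widely expressed LIM and SH3 protein with nebulin-like repeats, had 9.38 and 9.88, 1.419-fold higher. The bound for Neb was 5.23 log2 units below the difference of Nebl and 5.38 below that of Lasp1. These arrays offer 1 measure of spread, the disagreement between the brightest 2 probe sets of the same gene, whose differences varied with an SD of 0.23 on the log2 scale over 532 genes; animals and hybridisations add spread that it does not hold.

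The 4 genes of the pointed end were all lower. Tmod1, a tropomodulin of striated muscle, red cells and lens, had 9.89 in the wild type against 5.44 in the double knockout, at least 13.0-fold lower. A further Tmod1 probe set, annotated to a single cDNA, was below the floor on both arrays (5.63 and 5.43), so it gives no second reading of this difference; with the median of both probe sets in place of the brighter one, the Tmod1 difference was -1.57 instead of -3.70 on the log2 scale. Tmod4, the tropomodulin that is largely restricted to skeletal muscle, had 9.33 and 4.53 and was at least 8.82-fold lower.

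The leiomodins started from lower wild-type signals, so less of their difference could be measured. Lmod3, the main leiomodin of skeletal muscle, had 8.29 in the wild type against 3.92 in the double knockout, at least 4.29-fold lower. Lmod2, known best from heart and also made in skeletal muscle, had 8.16 and 4.70, at least 3.92-fold lower. Both exceeded the floor in the wild type alone.

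The other tropomodulins were less than 2-fold apart, and the smooth muscle leiomodin was not measured. Tmod3, which is expressed in most tissues, had 8.22 in the wild type against 8.54 in the double knockout, 1.25-fold higher. Tmod2, the neuronal form, had 6.85 and 6.48, 1.29-fold lower. Lmod1, the leiomodin of smooth muscle, was under the floor on each array (5.26 and 4.98). The bound for Tmod4 was 3.46 log2 units below the difference of Tmod3, and that for Tmod1 was 4.02 below it.

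The 2 Xin-repeat genes, whose proteins bind and bundle actin at myotendinous junctions and, in heart, at intercalated discs, had the lowest bounds of the 10 genes. Xirp1 had 8.09 in the wild type against 4.47 in the double knockout, at least 3.75-fold lower. Xirp2 had 7.33 and 3.26, at least 2.21-fold lower. As deposited, without the floor, the 2 genes differed by -3.62 and -4.07, so the small bound of Xirp2 comes with a wild-type value 1.16 log2 units above the floor. Xirp2 was the only member closer than 3-fold to the wild type by its bound: 9 of 10 members were at least 3-fold lower, beside 1.55% of all measured genes.

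Cap2 was the only member with a signal above the floor on both arrays, so its fold is a value and not a bound. Cyclase-associated proteins release actin monomers from cofilin and recharge them, and Cap2 is the form enriched in striated muscle. Cap2 had 10.26 in the wild type against 6.52 in the double knockout, 13.38-fold lower, with 7.48% of the wild-type signal left. That remaining signal stood 0.34 log2 units above the floor. Its widely expressed paralog Cap1 had 10.81 and 10.94, 1.10-fold higher, a difference smaller than the SD of 0.23 between probe sets. The gap between the 2 Cap genes was 3.87 log2 units.

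Smpx, a small muscle protein found where the sarcomere is tied to the cell membrane, had 9.52 in the wild type against 3.95 in the double knockout, at least 10.1-fold lower. Smpx lies on the X chromosome. Sex-linked markers were uneven across the arrays: Xist had 10.87 and 10.22, and the Y-linked Eif2s3y had 2.38 and 6.55. Their part in the Smpx difference was not tested; the 9 other members are autosomal.

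Both targeted genes had dim signals. Myf5 had 6.31 and 4.95 (wild type, double knockout) and Myod1 had 7.14 and 6.49; the sources used here do not say whether their probes fall in the deleted parts. Of the muscle markers, all 6 (Ckm, Mylpf, Myh3, Myh8, Ryr1 and Cacna1s) exceeded the floor in the wild type and 0 did in the double knockout, and their summed linear signal as deposited was 10568 against 179, the latter made up only of values under the floor, so no fold is read from it. Of the cartilage and bone markers of a jaw, 6 of 8 had a probe set (Bglap and Runx2 are not analysed here). All 6 were above the floor on both arrays, with summed linear signals of 12070 and 13919. Most of that came from Ibsp (12.24 and 12.46) and Col1a1 (12.50 and 12.63). Acan was 1.25-fold lower, and the others were from 1.10-fold (Col1a1) to 1.70-fold (Sox9) higher. In whole tissue, fewer muscle cells and less RNA per muscle cell cannot be told apart.

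Several members are also made outside skeletal muscle, and markers of those and other cells were read beside them. Heart muscle makes Nrap, Lmod2, Tmod1, Xirp1 and Xirp2, among other members. Of its 6 markers, 5 (Myh6, Nppa, Nppb, Myl7 and Tbx20) were below the floor on both arrays and Nkx2-5 had 6.66 and 6.31. Their summed linear signal was 211 in the wild type against 186 in the double knockout. For red cells, which make Tmod1, 3 of 5 markers had a probe set: Alas2 had 8.51 and 8.36, Slc4a1 6.76 and 6.10, Epb42 was below the floor on both arrays, and the summed linear signal was 493 and 414. All 5 smooth muscle markers were above the floor on both arrays, with summed linear signals of 3171 and 1960, most of it from Acta2 (11.22 and 10.28). The others, Myh11, Tagln, Cnn1 and Smtn, differed by -0.04, -0.07, 0.08 and -0.26 on the log2 scale, and the list median was -0.07. Of 5 neuron markers, Stmn2 had 7.69 and 8.13, Tubb3 had 6.16 and 6.67, the other 3 were below the floor on both arrays, and the summed linear signal was 395 and 528. The summed signals of the heart, red cell and neuron markers include deposited values under the floor. The part of these markers' cells in the members' differences was not tested.

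**Figure D2:**
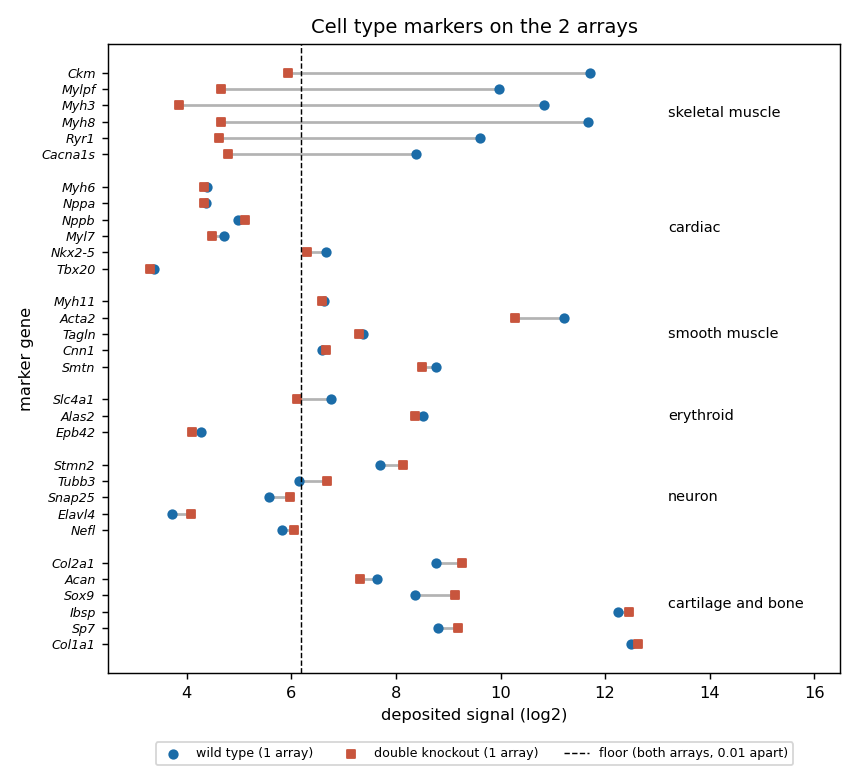
Deposited log2 signal (x axis) of marker genes of 6 cell types (y axis) on the wild-type array (circles) and the double-knockout array (squares), with the floor as a dashed line. The 6 skeletal muscle markers cross the floor, 5 of 6 cardiac markers lie left of it on both arrays, and the 6 cartilage and bone markers lie right of it on both.

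The proteins that the members work with fell into lists that were mostly lower and lists that were not. Of the 13 core genes of the thin filament (actins, tropomyosins and troponins), 12 were measured and 10 were at least 2-fold lower, 9 of them by a bound. The median difference, bounds included, was -3.61. The largest bounds were those of the actins Actc1 and Acta1, the fast troponin T Tnnt3 and the fast troponin I Tnni2. Tnni2 was at least 34.4-fold lower (11.29 against 5.52). Bounds follow the wild-type signal and do not order the genes by loss. The exceptions were the tropomyosins Tpm1 and Tpm3. Tpm1 was 1.73-fold lower (11.22 and 10.43). Tpm3, on the brightest of its 4 probe sets, had 10.49 and 10.55, a difference of 0.06. It was -0.040 once all differences were centred on their median. The other Tpm3 probe sets are not given here. Cardiac Tnni3 was below the floor on both arrays.

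Of 10 genes of the Z-disc, where thin filaments are anchored, 9 were at least 2-fold lower, 7 of them by a bound. The median, bounds included, was -3.50. The alpha-actinin Actn2 was at least 30.7-fold lower, the calsarcin Myoz1 at least 21.6-fold, the PDZ-LIM protein Ldb3 at least 18.46-fold and Myoz2 at least 16.51-fold. The titin cap gene Tcap had 6.78 in the wild type against 4.88 in the double knockout, a bound of at least 1.51-fold. Its wild-type signal exceeded the floor by only 0.61 log2 units, so it could not have been counted as 2-fold lower. Without a floor its difference was -1.90 on the log2 scale, and 10 of 10 Z-disc genes were at least 2-fold lower.

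Among 5 genes for the folding and stability of sarcomere proteins, 4 were measured and 3 were at least 2-fold lower, and the median difference was -1.80. The Kelch proteins Klhl40 and Klhl41 bind nebulin, and Klhl40 also stabilises leiomodin 3. Klhl41 was at least 25.3-fold lower (10.85 and 4.38). Klhl40 began too close to the floor to be counted as 2-fold lower (6.83 and 4.48), and its bound was at least 1.56-fold. Without a floor Klhl40 differed by -2.35 on the log2 scale, and 4 of the 5 genes were at least 2-fold lower. The methyltransferase Smyd1 was at least 5.17-fold lower and the myosin chaperone Unc45b at least 2.33-fold. Kbtbd13, a further nemaline myopathy gene, was below the floor on both arrays.

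General actin turnover genes differed little. Of 13 such genes, all above the floor on both arrays, 1 was at least 2-fold lower and the median was 0.11. That 1 was Cfl2, the muscle form of cofilin, which had 10.53 in the wild type against 8.59 in the double knockout and was 3.84-fold lower. Next came destrin, Dstn, 1.34-fold higher, and the barbed-end capping subunits Capza2, 1.19-fold lower, and Capza1, 1.18-fold higher. Of the 5 measured paralogs of the members, 0 were at least 2-fold lower or higher, and their differences ran from -0.37 to 0.50. Nebl and Tmod2 could not have been counted as lower, because their wild-type signals exceeded the floor by only 0.38 and 0.67 log2 units. The same holds for the turnover genes Fhod1 (0.89) and Fhod3 (0.94). Without a floor, 0 of 6 paralogs and 1 of 13 turnover genes were at least 2-fold lower.

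**Figure D3:**
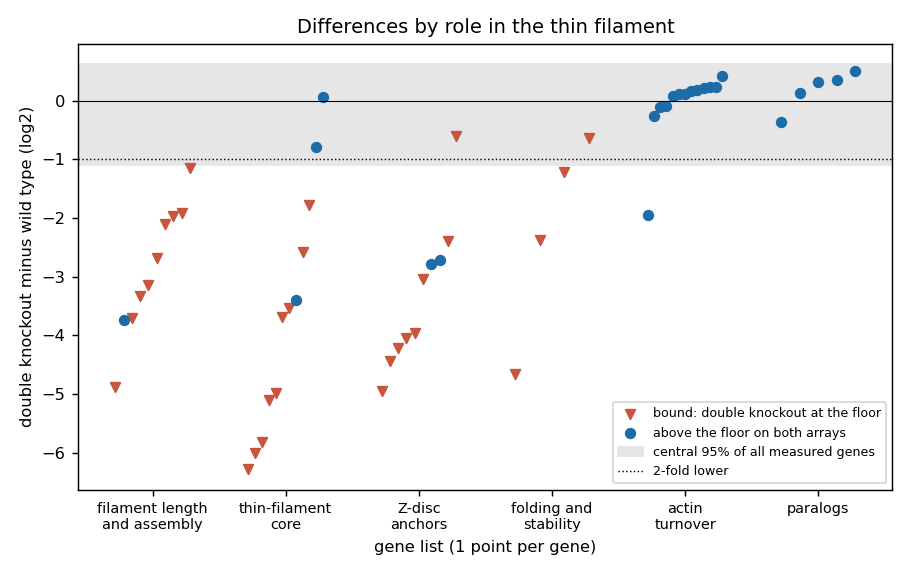
Difference of each measured gene (y axis, double knockout minus wild type, log2) in 6 gene lists (x axis, 1 point per gene); triangles are bounds with the double knockout at the floor, circles were above the floor on both arrays, the dotted line is 2-fold lower and the grey band holds the central 95% of all measured genes. All 10 filament length and assembly genes lie under the dotted line, as do 10 of 12 core genes and 9 of 10 Z-disc genes, against 1 of 13 actin turnover genes and 0 of 5 paralogs. With the floor in place, the paralogs Nebl and Tmod2 and the turnover genes Fhod1 and Fhod3 could not have reached that line. Nor could the Z-disc gene Tcap and the folding and stability gene Klhl40.

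The members' differences kept their sign under every processing alternative that gave a value: all 59 such values were negative. This was largely fixed in advance. Raising values to a floor shrinks differences this large without reversing them, and the median over probe sets could alter only Tmod1. Changes of scaling moved each member's difference by less than the SD of 0.23 between probe sets. The choice of the floor moved them most for every member except Tmod1, which moved most with the median over its probe sets (-1.57). A floor at the 75th percentile of annotated probe sets lay at 7.73 and 7.77 (wild type, double knockout). Then 9 members were measured and 6 were at least 2-fold lower, beside 2.61% of all measured genes. The lower bounds of Lmod2, Lmod3 and Xirp1 were then too small to reach 2-fold (-0.38, -0.51 and -0.32 on the log2 scale). Xirp2 was below that floor on both arrays. Under a floor at the 25th percentile, 6 members exceeded it in the double knockout, all 10 were at least 2-fold lower, and the bound for Neb was -6.87 on the log2 scale.

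**Figure D4:**
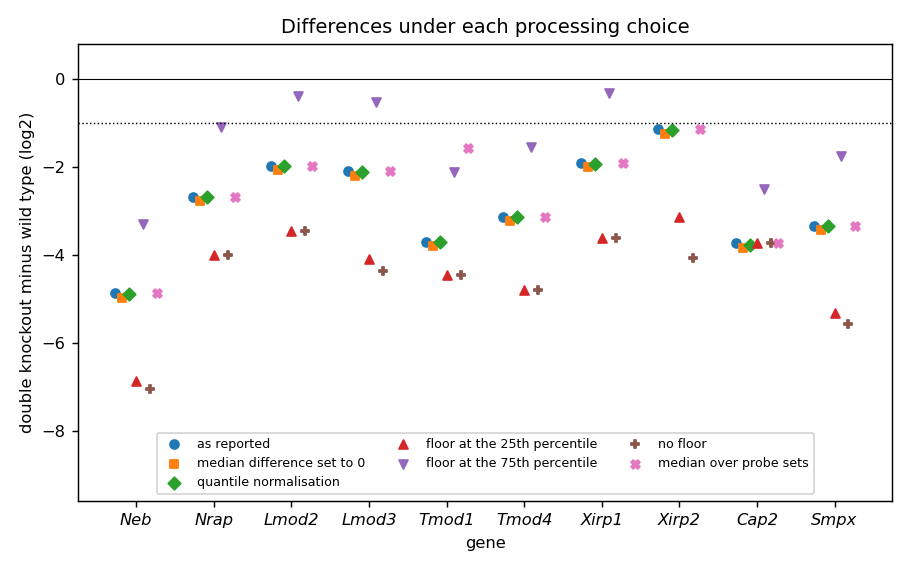
Difference of each member (y axis, double knockout minus wild type, log2) by gene (x axis) as reported and under 6 other processing choices (symbols); the dotted line is 2-fold lower. The symbols for the 2 other scalings lie on those for the reported values, and the choice of floor spreads the values, for Neb from -7.06 to -3.29.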

How the data were processed

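Gene expression was measured on 1 Affymetrix array per genotype from 6 µg total RNA, per the labels' protocols. The deposited table holds log2 signals for 35557 probe sets; base 2 was read from the range of the values (1.42 to 13.35). MAS5 is named, without a version, in the submitters' processing notes; the step that gave logarithms, the background correction and the normalization between arrays are not given in the sources used here. Array medians were 5.48 and 5.45, and the values were compared as deposited. Gene names came from GEO's platform annotation: 21789 probe sets named 1 gene, 1621 several and 12147 had no entry, and probe sets of several genes or none were left out (0 of them named a member). All 10 member symbols matched RefSeq by gene identifier.

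Values were raised to the floor, the probe set with the brightest mean linear value stood for a gene, and differences are double knockout minus wild type, counted at 2-fold. The number of arrays limits the precision. The members and lists were chosen with earlier results of these data known. All members and paralogs are named; of other lists, up to 4 genes with the largest differences and those not 2-fold lower where these were 3 or fewer. In marker lists, which were read by array, further genes are named, chosen after their values were seen. Alternatives were 2 other scalings, floors at the 25th and 75th percentiles or none, the median over probe sets, and thresholds of 1.5-fold and 3-fold. The calculation was tested on simulated data, with shifts in bright genes that stayed above the floor. Differences bounded by the floor were not covered by it. Python 3.11.15, pandas 2.3.3, numpy 2.4.6 and matplotlib 3.10.9 were used.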

Additional observations from a re-analysis of the deposited data

How the results depend on the processing

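The count of members lower by the threshold was 10 under 6 of the 8 alternatives and 9 at 3-fold. It was 6 under a floor at the 75th percentile, where fewer genes stand far enough above the floor. Centring on the median, the lower floor, no floor and the 1.5-fold threshold could not have reduced a count of 10. The count of members higher by the threshold was 0 throughout. The members' median difference was -4.05 under a floor at the 25th percentile, -1.55 at the 75th, -4.22 without a floor and -2.39 with the median over probe sets, where the dim Tmod1 probe set enters. Over all genes, 134 were at least 2-fold lower under a floor at the 75th percentile, 431 without a floor, 531 at 1.5-fold and 161 at 3-fold. In the 5 partner and paralog lists together, 23 of 44 measured genes were at least 2-fold lower. Between 18 and 26 were lower by the threshold under the alternatives. A difference counted as moved when it shifted by more than the SD between probe sets. No paired analysis was possible because each genotype has 1 array and the result comes from no test. Leaving out an array leaves no comparison. Signal over background limits 9 of the 10 members to bounds.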
